A study of Mus musculus with 6 samples.

Results

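Gc, the gene of vitamin D-binding protein, was followed across the islet wells of a MARS-seq series on pancreas regeneration. It is 1 of the 52542 gene rows of the count tables. The gene was chosen by its counts in insulin-only wells, where earlier results of the same data had it higher after pancreatectomy. Islets came from male mice after partial pancreatectomy (ppx), a surgical removal of pancreas tissue, or after a sham operation. All mice carried Sox9-CreER, an inducible Cre under control of the duct and progenitor gene Sox9, and a tdTomato reporter. All received tamoxifen (8 mg) starting at 10 weeks of age, were operated on at 12 weeks, and gave islets 4 weeks later. In MARS-seq, cells are sorted into wells and the 3′ ends of their transcripts are counted by unique molecular identifiers (UMIs). There were 3 plates of 384 wells for ppx and 3 for sham. Replicate 1 of each operation held tomato-positive cells, ppx replicates 2 and 3 and sham replicate 3 held tomato-negative cells, and sham replicate 2 was mixed. The labels do not tie plates to animals, so the tests measure the spread between plates, which may be technical.

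Vitamin D-binding protein is a secreted member of the albumin family that carries vitamin D metabolites in plasma and also binds monomeric actin. Liver makes most of it. In mouse islets Gc has been described as a gene of alpha cells, which make glucagon, and as induced in beta cells that lose their mature state. The gene lies on the minus strand at chr5:89417522-89457898 (GRCm38, GENCODE), and its longest transcript has 13 exons. No other annotated gene overlaps it, and the nearest protein-coding neighbours are Npffr2, 69530 bases away, and Slc4a4, 177868 bases away. Reads of 3′ ends should fall at the last exon of that transcript, chr5:89417522-89417688.

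The promoter is shown because it belongs to the annotated start of the longest transcript and holds a match to the site of HNF1 factors, regulators of liver and islet genes that are known to act on Gc. Which start the counted transcripts used was not measured, since only 3′ ends were counted. The RefSeq window runs from 250 bases before to 50 bases after the start site (chr5:89457849-89458148, minus strand, GRCm38.p6). The capitals mark the match to the half-sites GTTAAT and ATTAA with 1 base between them, searched on both strands, at positions -52 to -41 from the start site.
Gc promoter: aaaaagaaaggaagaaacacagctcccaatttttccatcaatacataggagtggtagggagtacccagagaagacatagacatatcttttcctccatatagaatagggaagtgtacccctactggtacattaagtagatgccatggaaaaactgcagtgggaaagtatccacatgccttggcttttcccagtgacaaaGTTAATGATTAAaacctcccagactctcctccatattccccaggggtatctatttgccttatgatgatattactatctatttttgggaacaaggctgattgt
This pair of half-sites occurs in 20 of 32851 promoter windows of this length (0.0609%). The match is a description of the sequence, and no binding was measured here.

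The plates held 1250861 to 1508513 UMIs each, and 339 to 362 wells per plate passed the filters, 2115 of 2304 in all, with median depths of 1954.5 to 3929 UMIs per well. Those wells held 1993 Gc UMIs, and 877 of them had at least 1. Wells were classed by hormone. A well was high in insulin (Ins1 plus Ins2), somatostatin (Sst) or glucagon (Gcg) above 3.26%, 0.747% or 2.61% of its UMIs, and a Ppy-high well had over 5% pancreatic polypeptide and none of the other hormones high. This gave 1001 insulin-only, 153 glucagon-only, 540 somatostatin-only and 62 Ppy-high wells, 175 wells joined in insulin and somatostatin, and 59 joined in somatostatin and glucagon. The classes carried their markers: the beta gene Ucn3 averaged 771 CPM (counts per 1000000 UMIs) in insulin-only and 16.5 CPM in glucagon-only wells, the alpha gene Irx2 1.24 and 145 CPM, and the delta gene Hhex 10.6 CPM in insulin-only and 357 CPM in somatostatin-only wells.

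Gc was highest in the wells of glucagon and pancreatic polypeptide and lowest, among endocrine wells, in those joined in insulin and somatostatin. These levels are a description, since the gene was chosen with this pattern known. Ppy-high wells stood at 445 ± 73.4 CPM (SD, n = 5 plates with at least 5 wells) and glucagon-only wells at 444 ± 58.2 CPM (n = 6). Wells joined in somatostatin and glucagon stood at 415 ± 39.6 CPM (n = 3), somatostatin-only wells at 283 ± 89.8 CPM (n = 6), insulin-only wells at 221 ± 101 CPM (n = 6) and wells joined in insulin and somatostatin at 114 ± 64.5 CPM (n = 6). With ppx and sham plates pooled, neighbours in this order had overlapping plate ranges throughout. On the same plate, however, glucagon-only wells lay above insulin-only wells on 6 of 6 plates (2.20-fold on average). They also lay above somatostatin-only wells on 6 of 6 (1.63-fold). Somatostatin-only wells lay above insulin-only wells on 4 of 6, the exceptions being ppx plates. On sham replicates 1, 2 and 3 they stood at 301, 311 and 330 CPM, against 148, 122 and 119 CPM in insulin-only wells. On ppx replicates 1 and 2 they were lower, at 176 and 179 against 318 and 321 CPM. On ppx replicate 3 they were higher, at 404 against 299 CPM. The somatostatin-only values of ppx replicates 2 and 3 rest on 3 and 14 Gc UMIs. Ppy-high and glucagon-only wells could not be ordered, with Ppy-high above on 2 of 5 plates. The order was the same when the hormone UMIs were left out of the total, which sets Ppy-high wells at 671 ± 97.8 CPM (n = 5) and insulin-only wells at 285 ± 128 CPM (n = 6).

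**Figure D1:**
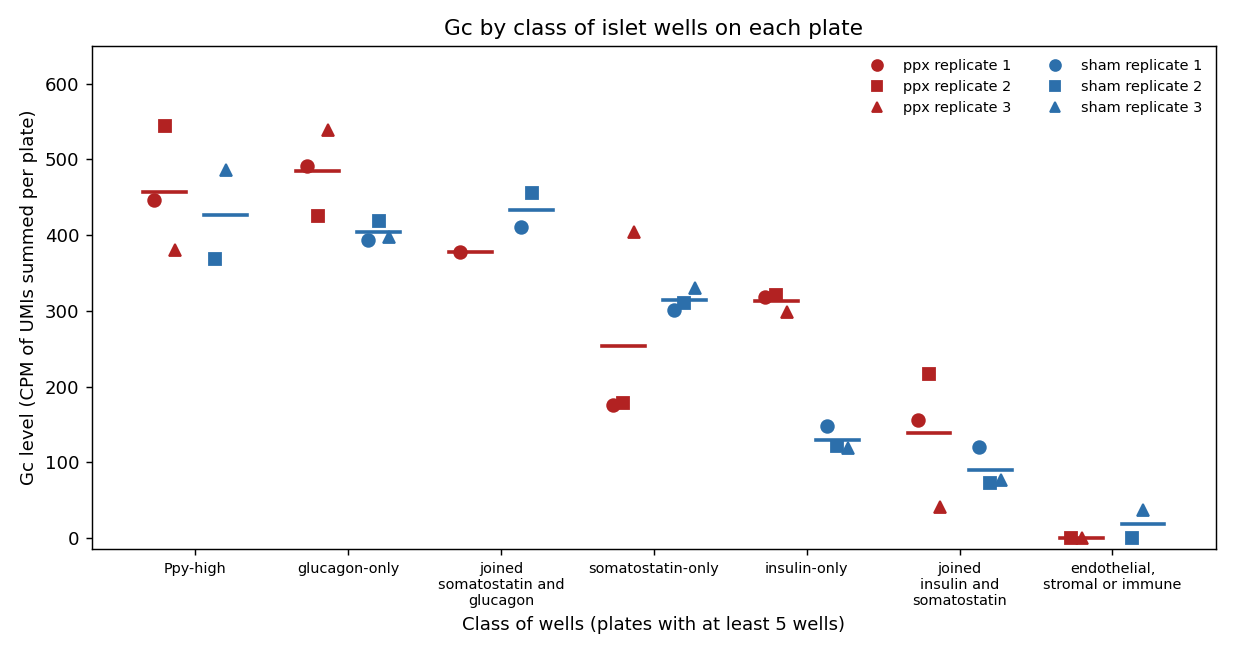
Gc level in CPM (linear axis) for each class of wells, with 1 point per plate that had at least 5 wells, ppx left and sham right, and lines at the mean of the plates. The ppx and sham plates are apart in insulin-only wells (299 to 321 against 119 to 148 CPM) and lie close in glucagon-only wells (425 to 539 against 394 to 419 CPM).

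Wells with no endocrine hormone high and at least 5 UMIs of endothelial, stromal or macrophage markers served as cells that should lack Gc. They held 2 Gc UMIs of 106910 (18.7 CPM), both on sham replicate 3. A Gc UMI was found in 484 of 1001 insulin-only wells (48.4%, 95% exact Clopper-Pearson interval 45.2 to 51.5, counting error only) at a median depth of 4253 UMIs, against 2 of 88 of these wells (2.27%, 0.276 to 7.97) at 924.5 UMIs. After thinning to 1000 UMIs the share was 171 of 991 insulin-only wells (17.3%, 15.0 to 19.8), against 0 of 39, which allows a share of up to 7.69% by the limit of 3 counts and up to 9.03% by the exact interval. Gcg was at 1549.9 CPM in insulin-only wells, and 2759 CPM in the non-endocrine wells, pooled over plates; insulin-only wells lay above the non-endocrine ones on 2 of 6 plates, ppx replicate 3 and sham replicate 1. Insulin-only wells held 1.27 to 4.59 Gcg UMIs per Gc UMI on ppx and 17.1 to 27.3 on sham plates, against 489 to 549.5 on ppx and 512 to 749 on sham plates in glucagon-only wells. At the ratio of the pooled glucagon-only wells, the Gcg seen in insulin-only wells would bring 0.624 to 2.40 CPM of Gc on ppx plates and 3.34 to 5.46 CPM on sham plates. The same reckoning with Ppy and Ppy-high wells gives at most 8.62 CPM on ppx and 7.71 CPM on sham plates, and with Sst and somatostatin-only wells at most 9.71 and 7.67 CPM. The measured Gc was 119 CPM or more on every plate. The reckoning takes 1 source at a time and assumes that carried-over RNA has the Gc to hormone ratio of the source wells, which was not measured. Whether carried-over RNA adds to Gc in insulin-only wells was not tested.

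In insulin-only wells the question was how the ppx islets differed from sham. Gc stood at 318, 321 and 299 CPM on ppx replicates 1, 2 and 3, against 148, 122 and 119 CPM on the sham replicates. Every ppx plate was above every sham plate, and the plates of each operation lay close together. The means were 313 ± 12.1 CPM on ppx and 130 ± 15.8 CPM on sham plates (SD, n = 3 each), a 2.41-fold ratio, and the log2 fold change across all genes was 1.27 ± 0.15 (SE, edgeR). Since this contrast chose Gc, no test is given. As background, 7.31% of the 8196 genes tested had every ppx plate above every sham plate, and 28 genes (0.342%) passed at an edgeR adjusted p under 0.05. The sums rest on 37, 392 and 369 Gc UMIs from 21, 294 and 292 wells on ppx plates, and on 21, 103 and 114 UMIs from 24, 177 and 193 wells on sham plates. The difference was present within the tomato-positive plates (318 against 148 CPM) and within the tomato-negative ones (321 and 299 against 119 CPM). The level in insulin-only wells was 64.8%, 75.6% and 55.4% of that in glucagon-only wells of the same plate after ppx, and 37.5%, 29.1% and 29.9% after sham.

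Gcg, the defining alpha transcript, moved the other way. It was at 1462, 971 and 381 CPM in insulin-only wells of the ppx plates, against 2898, 3328 and 2037 CPM on the sham plates (log2 fold change -1.65 ± 0.25, SE). This fall was not particular to insulin-only wells. Mean Gcg was also lower after ppx in somatostatin-only (1624 against 3334 CPM) and joined insulin and somatostatin wells (889 against 4457 CPM). The same held in Ppy-high (1333 against 4098 CPM, overlapping plates) and non-endocrine wells (1281 against 4613 CPM, n = 2 plates each). In glucagon-only wells the log2 fold change of Gcg was 0.004 ± 0.37 (SE). Ttr, the thyroxine carrier transthyretin, which islets make mainly in alpha cells, was at 2347, 2861 and 2760 CPM on ppx and 1990, 2347 and 2249 CPM on sham plates (0.24 ± 0.13, edgeR adjusted p = 0.657, not passing), the lowest ppx plate being level with the highest sham plate. The 5 alpha markers used to check the classes, beside Gcg and Ttr, were low. Irx2, Irx1, Slc38a5, Gria3 and Loxl4 summed to 10.6 to 34.4 CPM on ppx and 7.03 to 24.0 CPM on sham plates in insulin-only wells, against 222 to 352 CPM on ppx and 362 to 441 CPM on sham plates in glucagon-only wells. Of these 7 alpha markers, Gcg and Ttr included, between 1 and 4 were at 0 on a plate in insulin-only wells, Loxl4 on every plate (and also in glucagon-only wells). Other genes of the alpha list were not all low in insulin-only wells. Tm4sf4 averaged 378 CPM on ppx and 388 CPM on sham plates, against 309 and 466 CPM in glucagon-only wells. Peg3 averaged 554 and 585 CPM, against 885 and 856 CPM in glucagon-only wells. Slc7a2 was lower, at 95.5 and 140.2 CPM, against 379 and 423 CPM in glucagon-only wells. Insulin-only wells without a single Gcg UMI numbered 13 on ppx replicate 2 and 74 on ppx replicate 3 and none on the other plates, and there Gc was at 224 and 278 CPM.

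**Figure D2:**
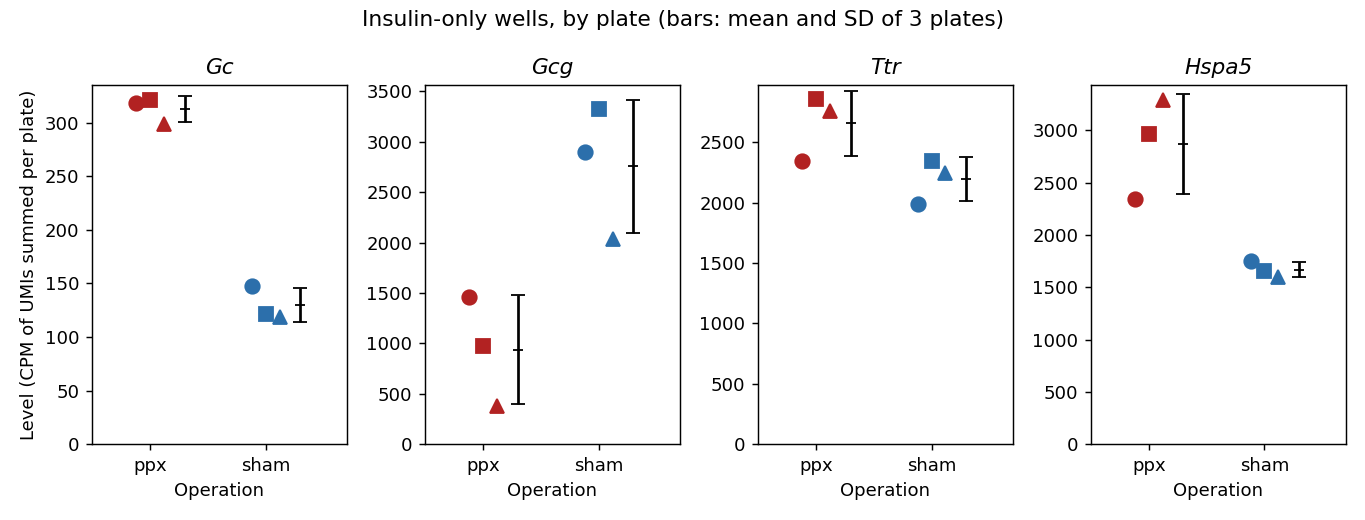
Level in insulin-only wells of Gc, Gcg, Ttr and Hspa5 in CPM (linear axes from 0), ppx left and sham right, 1 point per plate (circle, square and triangle for replicates 1, 2 and 3), with bars for the mean and SD of 3 plates. Gc and Hspa5 do not overlap, with ppx above, Gcg is lower (381 to 1462 against 2037 to 3328 CPM), and Ttr differs little.

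The higher level lay in many wells. At full depth 61.9%, 59.2% and 53.1% of insulin-only wells had a Gc UMI on ppx replicates 1, 2 and 3, against 45.8%, 37.9% and 33.2% on the sham replicates. Median depth was 3848 to 4750 UMIs on ppx and 4483 to 5397 UMIs on sham plates, which overlap, and replicate 1 of each operation had both the deepest wells and the highest share. After thinning each well to 1000 UMIs the shares were 28.6%, 22.1% and 21.6% on ppx and 12.5%, 10.2% and 9.38% on sham plates. A single UMI accounted for most of them: 23.8%, 16.9% and 17.1% of ppx wells and 12.5%, 9.60% and 9.38% of sham wells held exactly 1. Wells with 2 or more thinned UMIs were a minority on the ppx plates, and sham replicate 2 had the only such sham wells, 0.565% with 3 or more.

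Gc was still less even than a common level in all wells would make it. If each insulin-only well had its plate's level, 77.2%, 68.3% and 67.3% of ppx wells and 56.1%, 42.8% and 43.1% of sham wells would hold a UMI at their depths, and the observed share was below this on 6 of 6 plates. The plates with the fewest wells, replicate 1 of each operation, had intervals that include it, as did sham replicate 2. The variance of thinned counts was 1.44, 1.30 and 1.30 times the mean on ppx plates and 0.913, 1.19 and 0.911 times on sham plates. Wells with 5 or more Gc UMIs at full depth numbered 1, 15 and 18 on ppx and 0, 3 and 3 on sham plates, and the richest well, on ppx replicate 3, had 15. The 10% of wells with the most Gc held 48.6%, 37.8% and 46.1% of the Gc UMIs of ppx plates and 42.9%, 52.4% and 56.1% of those of sham plates. Without the 10% of wells of each plate with the highest Gc share, the log2 fold change was 1.54 ± 0.18 (SE, n = 3 plates each). Because this cut was made on Gc itself, the value cannot show whether the difference lies in few wells or many.

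**Figure D3:**
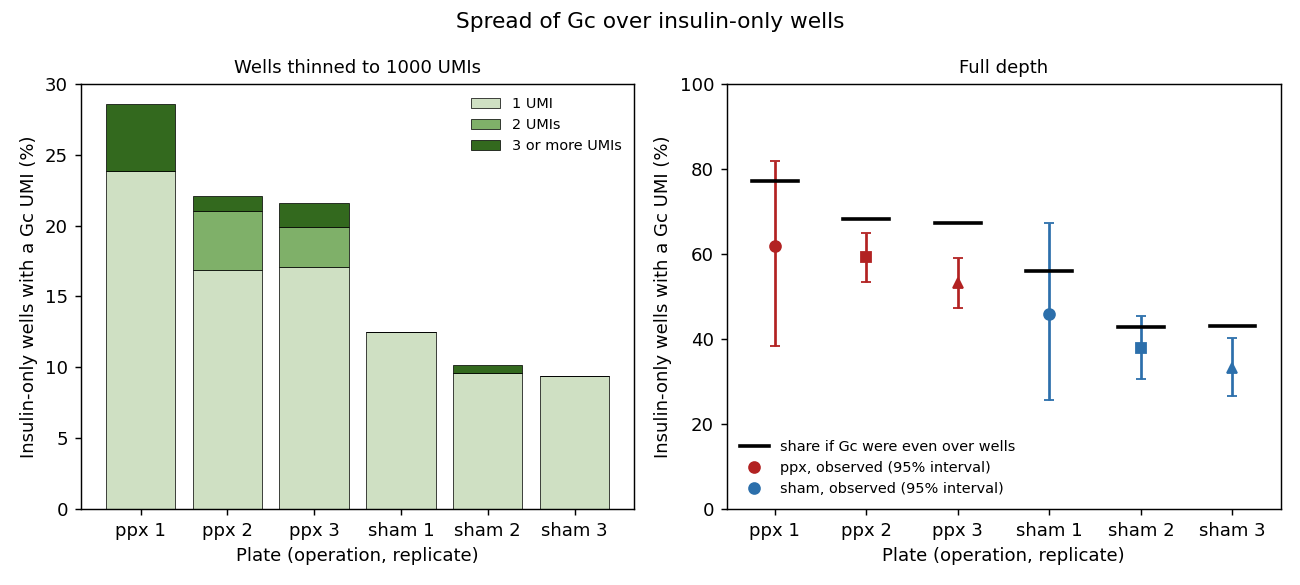
Share of insulin-only wells with a Gc UMI on each plate, ppx left of sham. The left panel shows wells thinned to 1000 UMIs, split by 1, 2 and 3 or more UMIs; the right panel shows full depth with exact 95% intervals and, as a black line, the share expected if Gc were even over the wells. The ppx plates reach 21.6% to 28.6% and the sham plates 9.38% to 12.5% after thinning, and every observed point lies under its line.

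Within each plate, insulin-only wells were split at the plate's median of a second measure, to see whether Gc follows it from well to well. With Gcg, Gc was lower in the upper wells on 6 of 6 plates, with an average log2 ratio of -0.26 ± 0.27 (SD, n = 6, exact two-sided sign-flip p = 0.0312, the smallest possible, BH adjusted p = 0.125 over the 4 measures). On ppx replicates 1, 2 and 3 Gc was at 311, 310 and 291 CPM in the wells above the Gcg median and at 323, 332 and 307 CPM in those below. On the sham replicates it was at 127, 110.1 and 88.2 CPM above and 164, 132 and 149 CPM below. After thinning the mean ratio was 0.15, so the direction was not stable, and the adjusted p did not pass in either setting. With Ttr the mean ratio was 0.15 ± 0.78 (above 0 on 5 of 6 plates, exact p = 0.562, adjusted 0.562).

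The endoplasmic reticulum (ER) stress list holds chaperones and regulators of the unfolded protein response, led by Hspa5, which encodes BiP. Gc was higher in the wells above the plate's median of this list on 5 of 6 plates, with an average log2 ratio of 0.65 ± 0.84 (SD, n = 6, exact sign-flip p = 0.0938, BH adjusted p = 0.125). On ppx replicates it was at 478, 343 and 356 CPM above and 101, 293 and 223 CPM below the median. On sham replicates it was at 128, 143 and 147 CPM above and 172, 97.9 and 85.4 CPM below, so sham replicate 1 ran against the rest. The first ppx value rests on 32 and 5 UMIs, and without ppx replicate 1 the mean ratio was 0.36. A short immaturity list, with Aldh1a3, Serpina7 and Vgf among the members seen, gave 0.69 ± 0.46 (above 0 on 5 of 5 plates, exact p = 0.0625, the smallest possible, adjusted p = 0.125). Ppx replicate 1 had too few wells with these genes for this split. Ties at the median went to the lower side, so this split was uneven. It set 110 against 184 and 116 against 176 wells on ppx replicates 2 and 3, and 56 against 121 and 42 against 151 on sham replicates 2 and 3. The upper wells of both lists were in most cases the deeper ones, and after thinning the mean ratios were 0.46 (n = 6 plates) and -0.05 (n = 4). None of the 4 measures passed.

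**Figure D4:**
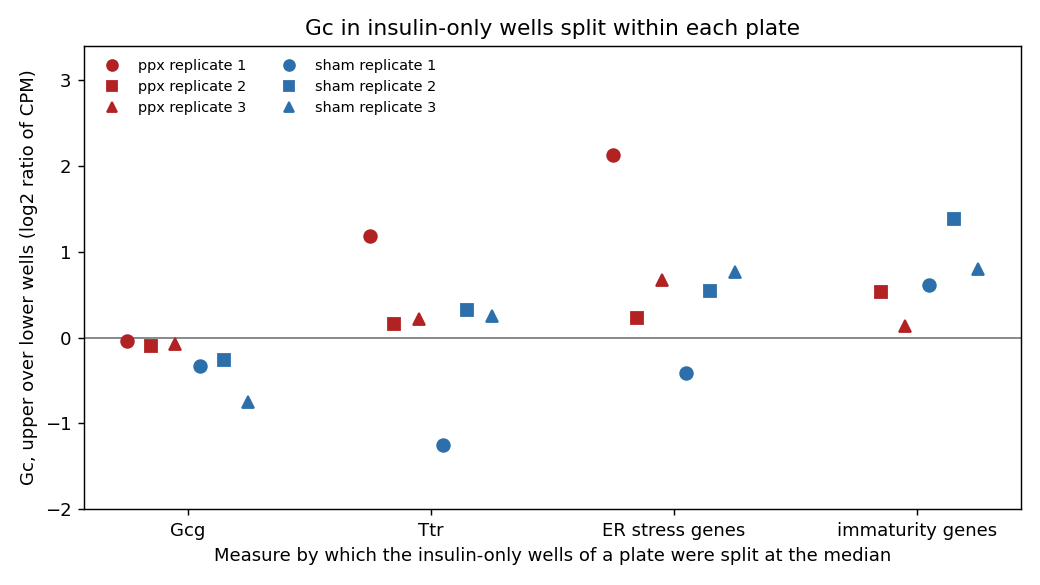
Log2 ratio of Gc (CPM) between the insulin-only wells above and below the plate median of Gcg, Ttr, ER stress genes and immaturity genes, 1 point per plate, ppx left of sham within each measure, with a line at 0. Wells at the median counted as below it. The Gcg points all lie below 0, and those of the ER stress and immaturity lists lie above 0 except for sham replicate 1 in the ER list.

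Insulin-only wells were also divided by stress gene level. The division was chosen after seeing the data and uses the contrast that chose Gc, so its values are a description. At a common dividing line, the median ER stress share of all insulin-only wells (1.17% of UMIs), the wells up to it had Gc at 209.98, 271 and 184 CPM on ppx replicates, against 128, 109 and 105 CPM on sham replicates. Above it the values were 807, 343 and 328 CPM on ppx, against 211, 148 and 165 CPM on sham plates. The 807 CPM come from 3 wells with 17 UMIs, and the 211 CPM from 5 wells with 7 UMIs. All ppx plates were above all sham plates on either side of the line, but how many other genes did so there was not counted. The fitted log2 fold changes were 1.00 ± 0.20 below (SE, n = 3 plates each) and 0.99 ± 0.19 above (n = 2 each, replicate 1 of both operations having under 10 wells), against 1.27 in all insulin-only wells. Of the wells of ppx replicates 2 and 3, 187 of 294 and 216 of 292 were above the line, and of sham replicates 2 and 3, 51 of 177 and 38 of 193. A single line need not make the stress share equal between operations on either side of it. Whether the ppx difference depends on that share was not tested.

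In glucagon-only wells Gc did not pass. It stood at 491, 425 and 539 CPM on ppx replicates, against 394, 419 and 398 CPM on sham replicates. The ppx plates did not overlap the sham plates, though ppx replicate 2 lay only just above sham replicate 2. The log2 fold change was 0.31 ± 0.22 (SE, n = 3 each, edgeR adjusted p = 0.834), where 4 of 685 genes passed (0.584%, or 0.438% higher in ppx) and 4.53% had every ppx plate above every sham plate. The ppx sums hold 22, 29 and 17 Gc UMIs from 6, 17 and 8 wells. Ppy, the marker of another endocrine cell, averaged 56493 CPM on ppx and 14788 CPM on sham plates in this class (log2 fold change 2.06 ± 0.47, SE, adjusted p = 0.0554). Without wells over 5% Ppy, the log2 fold change was 0.54 ± 0.32 (adjusted p = 0.841, n = 2 ppx and 3 sham plates).

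In Ppy-high wells the Gc level did not pass. It was at 447, 544 and 380.1 CPM on ppx replicates, against 368 and 486 CPM on sham replicates 2 and 3. Sham replicate 1 had 4 wells and was left out of the fit. The groups overlapped, and the log2 fold change was 0.07 ± 0.33 (SE, n = 3 and 2, edgeR adjusted p = 0.977), and -0.06 without ppx replicate 2 or without sham replicate 2. In this class 0 of 297 genes passed in edgeR (0%) and 0 in DESeq2, with 14 at an unadjusted p under 0.05 in edgeR and 5 in DESeq2. After thinning to 1000 UMIs, 3 of 7, 8 of 22 and 6 of 14 ppx wells held a Gc UMI, against 1 of 6 and 2 of 8 sham wells, the share on every ppx plate being above that on both sham plates; this share was not tested. At full depth, a share of 66.1% (95% interval 53.0 to 77.7) over all plates compares with 63.4% (55.2 to 71.0) of glucagon-only wells.

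Somatostatin-only wells did not show the insulin-only pattern as a passing change. Gc was at 176, 179 and 404 CPM on ppx replicates, against 301, 311 and 330.0 CPM on sham replicates. The ppx values enclosed all of the sham values, with replicates 1 and 2 below and replicate 3 above them. The fitted log2 fold change was -0.56 ± 0.28 (SE, n = 3 each, edgeR adjusted p = 1.00, where 0.108% of 923 genes passed and 3.58% had every ppx plate above every sham plate), and it was 0.30 without ppx replicate 1. Most of these wells are tomato-positive: 224 of the 245 ppx wells and 212 of the 295 sham wells were on replicate 1, and between those plates the levels were 176 (71 UMIs) against 301 CPM (113 UMIs). Ppx replicates 2 and 3 rest on 3 and 14 UMIs. Somatostatin-only wells that also held over 5% Ppy had more Gc than the others on 3 of 3 plates with enough wells, at 288 against 121 CPM on ppx replicate 1, 312 against 297 CPM on sham replicate 1 and 413 against 255 CPM on sham replicate 2. On sham replicate 1 the level rests on 28 UMIs, 11 of them in 1 well, and the share of wells with a Gc UMI ran the other way, at 7 of 35 wells over 5% Ppy against 52 of 177 of the others.

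Wells joined in insulin and somatostatin held less Gc than a pair of single wells would bring together. Gc was at 156, 217 and 41.2 CPM on ppx replicates, against 119, 72.4 and 76.9 CPM on sham replicates, while an average insulin-only well summed with an average somatostatin-only well from that plate would have 283, 277 and 342 CPM on ppx and 183, 174 and 178 CPM on sham plates. The joined level was thus lower than that sum on 6 of 6 plates, at 0.120 to 0.784 of it on ppx and 0.417 to 0.653 on sham plates. This difference was known when the gene was chosen and is given without a test. Only replicate 1 of each operation has depth here, with 82 and 45 Gc UMIs in 76 ppx and 57 sham wells, and ppx replicate 3 rests on 1 UMI. Between operations the log2 fold change was 0.65 ± 0.31 (SE, n = 3 each, edgeR adjusted p = 0.761, where 0.0906% of 1104 genes passed and 5.98% had every ppx plate above every sham plate), with plates that overlap. Wells joined in somatostatin and glucagon, at 377 CPM on ppx replicate 1 and 411 and 456 CPM on sham replicates 1 and 2, lay above the somatostatin-only wells on 3 of 3 plates.

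Other genes are given from lists whose results were partly known. In insulin-only wells 7 of 26 tested ER stress genes rose and none fell, against a background of 0.244% of genes called higher, and their median log2 fold change was 0.41 where that of all genes was near 0. The members that rose were Derl3 (2.29 ± 0.32, SE), a factor of ER-associated degradation, Sdf2l1 (1.51 ± 0.20), a partner of BiP, the disulfide isomerase Pdia4 (1.17 ± 0.26), Creld2 (1.06 ± 0.15), the prolyl isomerase Fkbp11 (1.01 ± 0.15), the chaperone Hyou1 (0.84 ± 0.18) and Hspa5 (0.75 ± 0.14). The tomato-positive plates did not show this for Sdf2l1, at 94.6 CPM on ppx and 98.5 CPM on sham replicate 1, or for Pdia4, at 60.2 and 63.3 CPM, and the plates of both genes overlapped. Hspa5 was at 2347, 2967 and 3290.1 CPM on ppx and 1751, 1659 and 1600.1 CPM on sham plates. In the immaturity list 0 of 3 tested members passed in edgeR, with Aldh1a3, a retinaldehyde dehydrogenase of dedifferentiating beta cells, at 1.36 ± 0.36 (adjusted p = 0.105), the granule peptide Vgf at 1.10 ± 0.30 (adjusted p = 0.117) and the thyroxine carrier Serpina7 at 0.96 ± 0.29 (adjusted p = 0.189). All 3 have an unadjusted p under 0.05. Over all 8196 genes tested, 0.342% passed and 8.87% had such a p. The immaturity list holds 12 genes, of which only these 3 could be tested. The alpha list holds 15 genes other than Gc, and of the 5 that could be tested 1 fell (Gcg) and none rose. Over all 8196 genes tested, 8 fell and 20 rose.

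The list of vitamin D and albumin family genes showed no passing change in insulin-only wells. In edgeR 0 of its 6 tested members were called, where 0.342% of all genes were called. The list is wider than vitamin D handling, since it also holds Gsn and Pdia3. The receptor Vdr was at 129, 237 and 231 CPM on ppx and 155, 213 and 171 CPM on sham plates, which overlap. Its partner Rxra had a log2 fold change of -1.21 ± 0.39 (SE, edgeR adjusted p = 0.248), the actin-severing Gsn 0.63 ± 0.27 (adjusted p = 0.466) and the disulfide isomerase Pdia3 0.32 ± 0.15 (adjusted p = 0.518). These 3 of the 6 tested members (50%) had an unadjusted p under 0.05, against 8.87% of all genes tested. The other genes of the albumin family, which lie in a cluster on the same chromosome, were almost unseen: Alb had 12 UMIs, Afm 1 and Afp 0 in the 2115 wells, against 1993 for Gc. The vitamin D hydroxylases were as rare, with 5 UMIs of Cyp27b1, 4 of Cyp27a1, 1 of Cyp2r1 and 0 of Cyp24a1, and the uptake receptors Cubn and Lrp2 had 1 and 0.

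The immediate early list, which rises with handling of cells as well as with stimulation, had 0 of 21 tested members called in insulin-only wells, where 0.342% of all genes were called. The smallest p were those of Hspa1b at 0.51 ± 0.14 (SE, edgeR adjusted p = 0.135), Klf2 at 1.04 ± 0.35 (adjusted p = 0.272) and Ier3 at 1.73 ± 0.59 (adjusted p = 0.281). An unadjusted p under 0.05 was found for 7 of the 21 members (33.3%), against 8.87% of all genes tested. In glucagon-only wells 1 of 14 rose, the transcription factor Klf6 (1.60 ± 0.35, edgeR adjusted p = 0.0461), where 0.438% of the 685 genes were called higher. In that class 0 genes were called higher in wells of at least 1000 UMIs. The same held without ppx replicate 2 or 3, and without sham replicate 1 or 2. In somatostatin-only wells 16 of 16 tested members had a positive log2 fold change (median 0.40), but none passed in edgeR, with 5 at an unadjusted p under 0.05; over all 923 genes 45.6% were positive and 4.33% had such a p.

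Over the 29 sums of class and plate (5 classes, sums of at least 5 wells), the genes most like Gc were not the alpha hormones. The measure was Pearson's r of log2(CPM + 1) among 2585 genes with a mean of at least 50 CPM, and the sums share libraries and depth. Each sum counted equally, though some rest on few Gc UMIs, down to 1 in joined insulin and somatostatin wells of ppx replicate 3. The first 10 were Mbnl2 (r = 0.754, Spearman's rho = 0.733), a splicing regulator, Scg5 (0.742, 0.814), a granule chaperone, Sfrp5 (0.737, 0.716), a Wnt antagonist, Rhob (0.736, 0.710), Fosb (0.729, 0.820), Atf3 (0.728, 0.817), Ndn (0.702, 0.610), 5330417C22Rik (0.676, 0.762), Rps15a (0.656, 0.685) and Klf2 (0.648, 0.700). Fosb, Atf3 and Klf2 are members of the immediate early list, whose share among the 2585 genes was not counted. Scg5 averaged 1969.6 CPM in glucagon-only, 1791 CPM in Ppy-high and 1199.9 CPM in insulin-only wells, and Atf3 897, 493 and 111 CPM. Ttr ranked 151 (r = 0.398), Gcg 169 (r = 0.383) and Hspa5 2221 (r = -0.372). These correlations describe differences between classes and plates together and have no test.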

How the data were processed

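Raw UMI counts, as the authors deposited them, came in 1 table for each plate, with wells as columns. The submitters' processing notes name HISAT 0.1.6 and mm10, but no counting tool or annotation (not given in the sources used here). Tables hold 52542 gene rows beside 92 ERCC rows with 3 UMIs. Wells with under 500 UMIs (96) or over 20% mitochondrial UMIs (93) were left out; doublets were not removed, since joined wells are described here. No well name is shared between plates. The series design states 2300 cells from 6 pancreata.

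Hormone thresholds were the midpoint, on log2(CPM + 1), between the median of wells led by a hormone (at least 1% of UMIs) and the highest median of wells led by another, without clustering, since clusters would use Gc. UMIs were summed per plate and class (at least 10 insulin-only wells, 5 for other classes) and tested across all genes with edgeR 4.0.16 in R 4.3.3 (quasi-likelihood test after filterByExpr and TMM scaling; Benjamini-Hochberg adjusted p under 0.05); SEs come from the F statistic. DESeq2 1.42.0 (Wald test) was an alternative. The edgeR script was tested on simulated data. Splits of wells used CPM of summed UMIs with 0.5 added to each UMI sum, and exact sign flips over plates (Python 3.11.15, scipy 1.17.1). Exact 95% intervals, and the upper limit of 3 counts used where 0 were seen, cover counting error only. The members and lists were chosen with earlier results of these data known, and the named genes were Gc, the hormones, list members past the threshold or the 3 with the smallest p, and the 10 most alike. Some marker genes were left out of the lists and are not reported here. Plates of equal replicate number were not treated as pairs in the main fit, since no class had all of its same-number correlations above 0.1. This limit does not exclude pairing, and a replicate block was fitted as an alternative.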

Additional observations from a re-analysis of the deposited data

Results flagged for a closer look

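Wells left out by the filters on depth and mitochondrial share held Gc UMIs on 6 of 6 plates, and on 1 ppx plate their level was above that on every sham plate. On ppx replicate 3 they held 18 Gc UMIs of 96200, or 187 CPM, above the 35.5, 165 and 51.1 CPM of the left-out wells of the sham plates. The left-out wells of ppx replicates 1 and 2 were at 65.8 and 30.6 CPM. The sham values rest on 1, 4 and 1 UMIs. These wells entered no comparison.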

How the results depend on the processing

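The log2 fold change of Gc in insulin-only wells, 1.27, lay between 1.23 and 1.34 with any 1 plate left out and was 1.27 with the replicate block. It was 1.54 without the 10% of wells richest in Gc, a cut made on Gc itself. In wells below and above the median ER stress share, an alternative chosen after seeing the data, it was 1.00 and 0.99. The cause of these shifts was not tested. In glucagon-only wells (0.31) it was 0.02 to 0.54 over the other settings and 0.23 to 0.42 with a plate left out, with adjusted p of 0.797 to 0.993. In somatostatin-only wells (-0.56) it was 0.18 without both tomato-positive plates, and -0.79 (without ppx replicate 3) to 0.30 (without ppx replicate 1) with a plate left out. In Ppy-high wells (0.07) leaving out a plate gave -0.065 to 0.28, and in joined insulin and somatostatin wells (0.65) 0.63 to 0.77. With the replicate block these values were 0.31, -0.51, 0.08 and 0.56, and it changed no call of Gc.

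Counts of genes called moved more than Gc. In insulin-only wells (28 genes) DESeq2 called 10, no filter on low counts 68, the replicate block 57, leaving out both tomato-positive plates 57, round hormone thresholds 16, thinned wells 12, and wells below and above the median ER stress share 2 and 5. With a plate left out the count was 11 (without sham replicate 3) to 49 (without ppx replicate 1), and 16 without ppx replicate 2 or 3. In glucagon-only wells (4) DESeq2 called 1, no filter 9, leaving out both tomato-positive plates 14 and wells of at least 1000 UMIs 0, with 0 to 8 when a plate was left out. In somatostatin-only wells (1) no filter gave 3, the replicate block 4, leaving out both tomato-positive plates 8, thinned wells 0 and leaving out wells over 5% Ppy 0, with 1 to 9 when a plate was left out. In Ppy-high wells (0) no filter gave 1, the replicate block 3 and leaving out the tomato-positive plates 1, with 0 to 1 when a plate was left out. In joined insulin and somatostatin wells (1) no filter gave 4, the replicate block 4, leaving out the tomato-positive plates 0 and round thresholds 0, with 0 to 5 when a plate was left out.

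Of the splits within plates, that by Gcg (-0.26) was 0.15 in thinned wells and -0.30 to -0.16 with a plate left out, that by Ttr (0.15) -0.061 (without ppx replicate 1) to 0.42 (without sham replicate 1), that by ER stress genes (0.65) 0.36 to 0.87, and that by immaturity genes (0.69) -0.047 in thinned wells and 0.52 to 0.83 with a plate left out. Wells without a Gcg or a Ttr UMI were too few on some plates to be fitted. Gc did not pass the count filter in thinned wells of all classes but insulin-only, and in joined wells with round thresholds or without ppx replicate 1, sham replicate 1, sham replicate 2 or both tomato-positive plates. A lone plate left in an operation was assumed to vary like the others. Depth limits the small sums most, such as the 7 and 1 Gc UMIs of joined wells on ppx replicates 2 and 3 and the 3 of somatostatin-only wells on ppx replicate 2.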
